A study of Homo sapiens with 6 samples.

Results

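Olfactory receptor (OR) genes of chromosome 11 are described here as a family that is not expected to be in use in B cells. The family was taken by name, as the protein-coding genes that RefSeq places on chromosome 11 of GRCh38 and whose symbols begin with OR, a number, letters and a number. The rule found 171 genes. Of these, OR8U8, OR8U9 and OR9G9 carry positions on another scaffold of the assembly and could not be measured, which left 168 of the 19817 protein-coding genes of chromosomes 1 to 22 and X. Another 221 OR genes lie on the other chromosomes.

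The cells were GM12878, a B lymphoblastoid line made by infecting blood B cells with Epstein-Barr virus, so all groups share 1 cell line and its viral genome. In the H3K27ac high and H3K27ac low groups, cells were fixed with paraformaldehyde, stained for the acetylated histone and sorted for strong or weak staining, and crosslinks were reversed after transposition. In the live control group, unsorted live cells were transposed and their DNA was purified at once. Each group had 2 libraries of 50000 cells. The replicates were divided from counted cells and may differ only technically, and p-values measure no more than that. The assay, InTAC-seq, is a form of ATAC-seq in which the transposase Tn5 inserts adapters into open DNA. The files give 1 list of peak summits per library, and read depth is unknown.

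OR genes encode the odorant receptors, G protein-coupled receptors that act in olfactory sensory neurons of the nose. They sit in large clusters, and each olfactory neuron expresses a single allele while the other OR genes are packed into heterochromatin. In other tissues the clusters are mostly silent. Class I receptors, the fish-like families numbered from the fifties, are held in 1 cluster on the short arm of chromosome 11, and class II receptors make up the rest. The transcription factors known to act at OR promoters and enhancers are LHX2, its partner LDB1, and the EBF family, whose member EBF1 is also a master regulator of B cells.

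The lists held 70021 and 72392 summits on chromosomes 1 to 22 and X in the live control, 25681 and 46633 in the H3K27ac high group, and 41888 and 51846 in the H3K27ac low group. H3K27ac high replicate 1 was the shortest list, so results are also given without it or at equal length. Of the 10 markers of B lymphoblastoid cells fixed for the label check, 10 and 10 had a summit at a gene end in the live lists. In the high lists 7 and 9 had one, and in the low lists 9 and 9. The shares over all protein-coding genes were 61.5% and 61.7% (live), 44.9% and 56.0% (high), and 55.0% and 57.6% (low). CR2, the complement receptor of B cells, was counted in the live lists alone. Markers of other cell types were not all closed. In the same order of lists, 5 olfactory neuron markers gave 3 and 2, 0 and 2, and 2 and 2, with LHX2 and the adenylyl cyclase gene ADCY3 in 5 lists each and the defining genes OMP and CNGA2 in none. The 4 T and NK markers gave 4 and 3, 3 and 2, and 2 and 2, with CD2 and CD3E in all 6 lists. The 3 myeloid markers gave 1, 1, 0, 1, 1 and 1 (CD14), and the 7 erythroid markers 1, 1, 0, 0, 1 and 1 (KLF1). Their part in the results was not tested.

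The sequences just before 3 annotated starts introduce the family, with CpG dinucleotides, the usual mark of a broadly used promoter, in capitals. OR52N2 is shown because summits lay at its start, OR2AG2 because summits lay further upstream, and OR4C12 because it was the member farthest from any summit by its median over lists. Each is the 250 bases before the start, 5′ to 3′ on the gene's own strand, from the RefSeq promoter table (GRCh38.p14): OR52N2 at chr11:5808674-5808923 (plus strand), OR2AG2 at chr11:6771977-6772226 (minus strand) and OR4C12 at chr11:49982536-49982785 (minus strand).
OR52N2: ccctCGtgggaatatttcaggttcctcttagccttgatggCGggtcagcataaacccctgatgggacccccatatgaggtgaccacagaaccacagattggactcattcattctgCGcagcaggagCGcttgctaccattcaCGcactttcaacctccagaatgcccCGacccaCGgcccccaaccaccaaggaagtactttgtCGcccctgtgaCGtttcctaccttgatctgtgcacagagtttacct
OR2AG2: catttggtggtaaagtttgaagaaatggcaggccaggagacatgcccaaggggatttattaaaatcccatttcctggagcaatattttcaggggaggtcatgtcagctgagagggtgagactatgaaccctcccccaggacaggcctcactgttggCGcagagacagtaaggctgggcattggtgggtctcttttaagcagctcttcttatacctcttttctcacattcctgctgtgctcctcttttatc
OR4C12: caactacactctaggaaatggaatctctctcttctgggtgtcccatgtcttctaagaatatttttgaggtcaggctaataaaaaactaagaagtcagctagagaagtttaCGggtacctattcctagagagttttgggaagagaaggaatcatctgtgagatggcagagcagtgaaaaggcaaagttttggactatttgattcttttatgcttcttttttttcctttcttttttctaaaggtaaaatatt
The stretch before OR52N2 holds 9 CpG, and those before OR2AG2 and OR4C12 hold 1 each.

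Few OR genes of chromosome 11 had an open site at an end. A gene is counted when a summit lay within 1 kb of either annotated end. By that rule 12 and 9 of the 168 OR genes were counted in the live control lists, 2 and 7 in the H3K27ac high lists, and 10 and 7 in the H3K27ac low lists. The same rule counted 61.5% and 61.7% (live), 44.9% and 56.0% (high), and 55.0% and 57.6% (low) of all protein-coding genes. OR shares ran from 1.19% (H3K27ac high replicate 1) to 7.14% (live control replicate 1), so in each of the 6 lists the family lay far below the average gene.

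**Figure D1:**
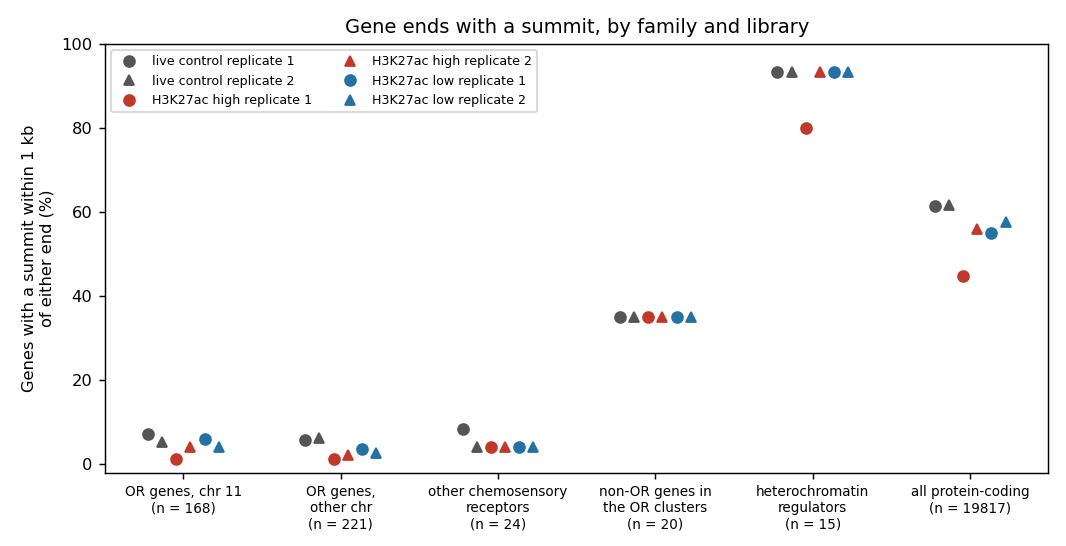
Share of genes with a summit within 1 kb of either end (y axis, %) for 6 gene families (x axis, number of genes in brackets), 1 point per library. OR genes of chromosome 11 sit between 1.19% and 7.14%, OR genes elsewhere between 1.36% and 6.33%, and all protein-coding genes between 44.9% and 61.7%.

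Over all lists, 17 OR genes (10.1%) had a summit at an end in at least 1 list, and 151 had none in any. The share of all protein-coding genes with a summit in at least 1 list was 64.8%. In all 6 lists the count was 2 OR genes, OR52K1 and OR51D1, against 43.9% of all protein-coding genes. Among the 17, 8 appeared in 1 list, 2 in 2 lists, 2 in 4 lists and 3 in 5 lists. The members nearest the limit were OR52N4, counted at 995 bp in 1 list, and OR56A3, left out at 1102 bp. With windows of 500 and 2500 bp the 17 became 9 and 23, against 59.7% and 72.5% of all protein-coding genes. With the 25681 best-scoring summits of each list, the length of the shortest, the 17 became 4, against 54.8% of all protein-coding genes. The 2 genes in all lists then became 1, against 40.5%.

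OR genes elsewhere and OR pseudogenes had few open ends too. Among the 221 OR genes of other chromosomes, 22 (9.95%) had a summit at an end in at least 1 list and 2 had one in all 6. The 205 OR pseudogenes of chromosome 11, the remnants of former receptor genes, had one in at least 1 list in 8 cases (3.90%) and in all 6 lists in none. The fixed list of 24 other chemosensory receptor genes, for tastes, pheromones and trace amines, had 2 (8.33%): TAS1R1, a subunit of the umami receptor, in all 6 lists, and TAS2R14, a bitter receptor, in live control replicate 1. No difference between these families was tested.

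**Figure D2:**
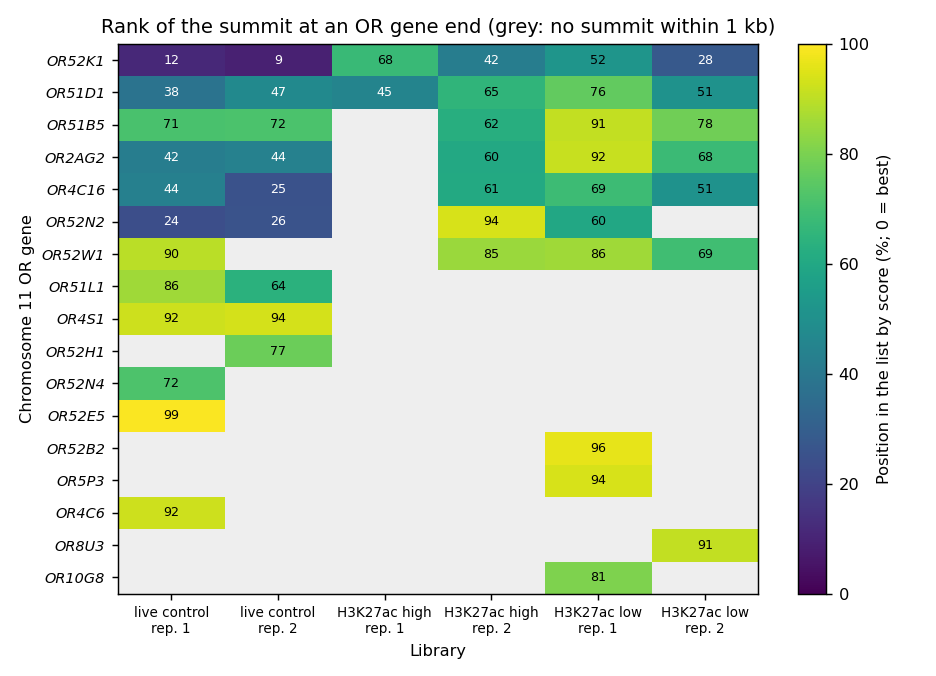
The 17 chromosome 11 OR genes (rows) with a summit within 1 kb of an end, by library (columns). Numbers and colour give the summit's position in its list by score, in percent from the best (0) to the last (100), and grey marks no summit. OR52K1 and OR51D1 fill all 6 columns, and the H3K27ac high replicate 1 column holds only these 2.

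The OR sites were mostly weak peaks. Score is the authors' value for each summit and is used here only as a position within a list, 0% being the best. OR52K1 had the best-placed site. Its summit stood at 11.7% and 9.07% of the live lists, 67.7% and 42.3% of the high lists, and 52.2% and 28.1% of the low lists. It was also the only OR gene still counted in all 6 lists at equal length. All 6 summits lay within 159 bp of each other, at chr11:4493216-4493375 (hg38). That is inside the gene, 122 to 281 bp from its stop end and 10570 to 10729 bp downstream of its annotated start, with the nearest end of a gene outside the family, TRIM21, over 99 kb away.

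OR51D1, another class I receptor, had summits at 37.9% and 47.3% of the live lists, 45.2% and 65.4% of the high lists, and 76.1% and 50.8% of the low lists. They lay at chr11:4637032-4637128, 349 to 445 bp outside the lower-coordinate end of the gene. At equal length this gene stayed in 1 list.

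OR51B5, OR2AG2 and OR4C16 were each counted in all lists but H3K27ac high replicate 1, a pattern that 8.59% of all protein-coding genes also had. OR51B5, the class I gene with the longest annotated model of the 17 (165335 bp), had summits at 71.2% and 71.5% of the live lists, 62.5% of high replicate 2, and 91.0% and 78.3% of the low lists. They spread over 337 bp at chr11:5339752-5340089. OR2AG2, a class II receptor, had summits 584 to 713 bp upstream of its start, at chr11:6772560-6772689. Their list positions were 42.4% and 44.0% (live), 60.2% (high replicate 2), and 91.5% and 68.2% (low). OR4C16 had its summits inside the gene, 552 to 614 bp downstream of its start, at chr11:55572680-55572742. They stood at 43.7% and 25.0% (live), 60.8% (high replicate 2), and 68.7% and 51.0% (low).

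OR52N2 and OR52W1 were counted in 4 lists each. The OR52N2 summits lay 356 and 245 bp upstream of the start in the live lists, 182 bp in high replicate 2 and 272 bp in low replicate 1. The live replicate 2 and high replicate 2 summits fall within the sequence printed above. Their list positions were 24.2% and 25.7% in the live control, 94.1% in high replicate 2 and 59.8% in low replicate 1. Low replicate 2 had no summit there. OR52W1 lies at the edge of its cluster, and its summits were 870 to 939 bp beyond its stop end, at 89.8% of live replicate 1, 84.9% of high replicate 2, and 85.7% and 69.4% of the low lists.

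The remaining 10 genes rested on weak summits. OR51L1 and OR4S1 were counted in both live lists and no sorted list, as were 1.95% of all protein-coding genes. The OR51L1 summits stood at 85.6% and 63.9% of the live lists, and those of OR4S1 at 92.2% and 93.7%. OR52N4, OR52E5 and OR4C6 appeared in live replicate 1 alone and OR52H1 in live replicate 2 alone. OR52B2, OR5P3 and OR10G8 appeared in low replicate 1 alone, and OR8U3 in low replicate 2 alone. The best position among these 8 was 71.9% (OR52N4) and the lowest 99.4% (OR52E5). Of the 17 genes, 12 are in the promoter table with their strand. By the first listed summit of each, 5 had the site at the start and 7 at the stop end.

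Class I genes carried more of the counted sites than class II genes. Of 55 class I genes, 10 (18.2%) had a summit in at least 1 list and 5 (9.09%) in at least 4. Of 113 class II genes the counts were 7 (6.19%) and 2 (1.77%). By family, the OR52 genes had 7 of 25, OR51 3 of 23, OR4 3 of 24 and OR5 1 of 34. The class I family OR56 had 0 of 7 and the class II family OR2 had 1 of 5. In the lists themselves, class I genes were counted 8 and 6 times (live), 2 and 5 times (high), and 6 and 4 times (low), and class II genes 4 and 3, 0 and 2, and 4 and 3 times. All class I genes share 1 cluster, so class and location cannot be told apart. The longer gene models, those over 1000 bp, had 12 of 94 counted and the shorter 5 of 74. Genes with a gene outside the family within 50 kb had 7 of 43, and those without 10 of 125. None of these divisions was tested, since the members are not replicates.

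Most OR genes were far from any open site. The median distance from an OR gene end to the nearest summit was 34894.5 and 36197 bp in the live lists, 93480.5 and 52981.5 bp in the high lists, and 47617 and 58334 bp in the low lists. Over the 1129 other protein-coding genes of chromosome 11 the median was 300 to 470 bp in 5 lists and 2214 bp in H3K27ac high replicate 1. For 113 OR genes (67.3%) no list had a summit within 10 kb. By the median over lists, the most remote were OR4C12 and OR4C13, a pair on the short arm side of the centromere. From OR4C12 the nearest summit was 455130 and 455106 bp away in the live lists and 1871395 to 1974643 bp away in the sorted lists. In the live lists OR4C46 was farther, at 968742 and 968744 bp, as was OR4A5, at 864838 and 864840 bp.

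**Figure D3:**
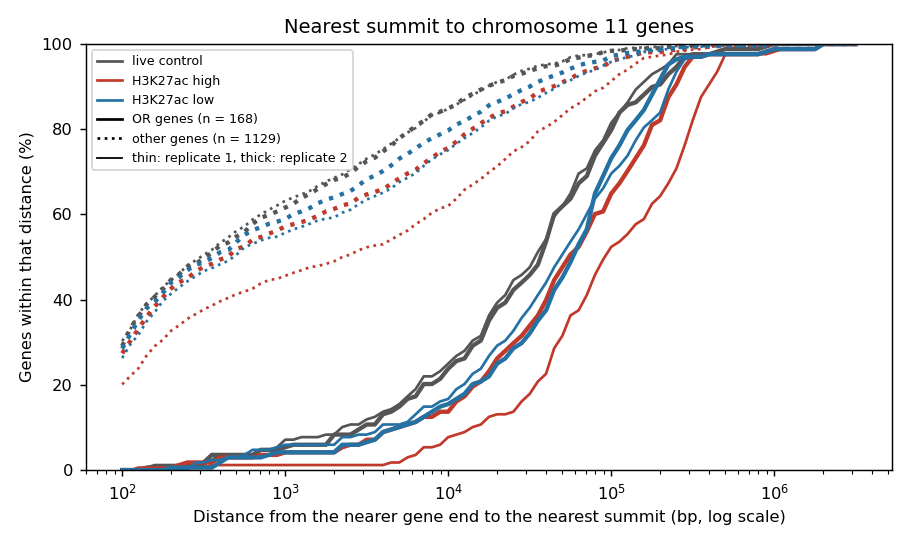
Cumulative share of chromosome 11 genes (y axis, %) whose nearer end lies within a given distance of a summit (x axis, bp, log scale), for OR genes (solid) and other protein-coding genes (dotted), 1 line per library. The OR lines stay below the dotted lines over most of the range, with OR medians of 34894.5 bp or more.

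The OR clusters held fewer summits per Mb than the genome. OR genes within 500 kb of each other were chained, and chains of at least 3 genes gave 8 clusters with 163 OR genes over 5.712 Mb. OR2AT4, OR4C12, OR4C13, OR4C46 and OR4A5 lie outside them. The clusters held 80 and 78 summits in the live lists, 25 and 46 in the high lists, and 48 and 52 in the low lists. That is 14.0 and 13.7, 4.38 and 8.05, and 8.40 and 9.10 per Mb, against 23.7 and 24.5, 8.68 and 15.8, and 14.2 and 17.5 per Mb over chromosomes 1 to 22 and X. Each library's density in the clusters, as a ratio to its own density over the genome, was 0.592 and 0.558 (live), 0.504 and 0.511 (high), and 0.594 and 0.520 (low). Gaps of 0.5 to 2 Mb between protein-coding genes, 597 gaps in all, gave ratios of 0.520 and 0.536 (live), 0.484 and 0.465 (high), and 0.489 and 0.472 (low). These lay below the cluster ratio in each list, a difference that was not tested. The regions are unlike: the gaps hold no protein-coding gene, and the clusters hold 20 outside the family. The ends of those genes gave 7 cluster summits in each list. With genes chained up to 1000 kb, which takes in stretches between clusters, the cluster ratios were 0.874 to 0.913. With chaining at 500 kb but without summits at ends of protein-coding genes outside the family, they were 0.533 to 0.675. Those summits were taken out of the genome density as well. These ratios thus have another background than the cluster and gap ratios above.

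**Figure D4:**
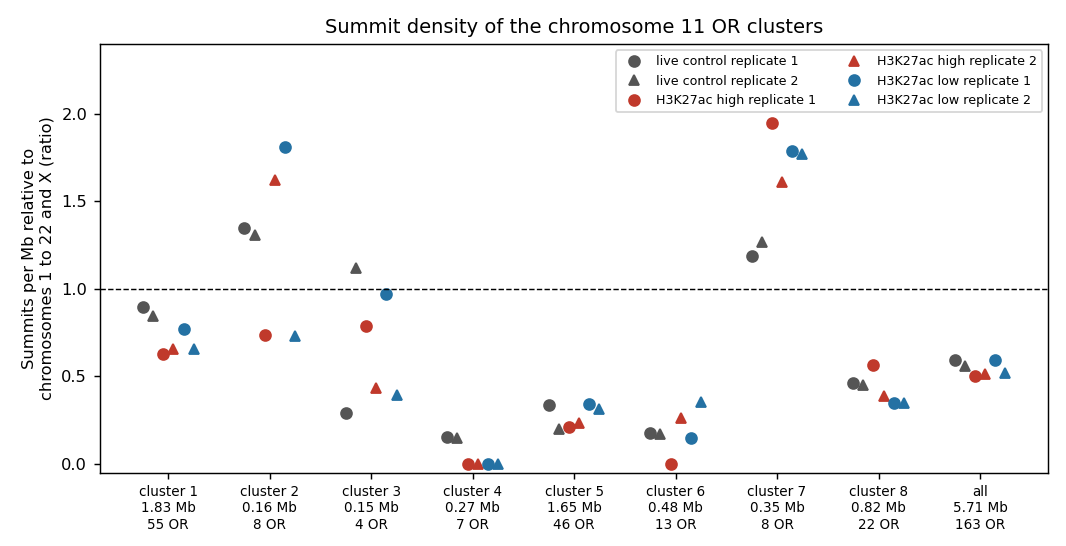
Summits per Mb in each OR cluster of chromosome 11, numbered by position, as a ratio to the density over chromosomes 1 to 22 and X in the same library (dashed line, 1). Points are libraries. Clusters 4, 5, 6 and 8 lie below 0.6 in all libraries, and cluster 7 lies between 1.19 and 1.95.

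The clusters differed among themselves. The large long-arm cluster at chr11:55343201-56989843, with 46 OR genes and 1 other protein-coding gene, had ratios of 0.199 to 0.343. The cluster at chr11:48216810-48489722, with 7 OR genes, held 1 summit in each live list and 0 in all 4 sorted lists. The class I cluster at chr11:4367263-6200186, with 55 OR genes and 15 other protein-coding genes, had ratios of 0.899 and 0.848 in the live lists, 0.629 and 0.658 in the high lists, and 0.771 and 0.654 in the low lists. The live values lay above all sorted values there, also at equal length (0.943 and 0.880 against 0.566 to 0.817). The cluster at chr11:6765626-6921994, with 8 OR genes and no other protein-coding gene, held 1 to 5 summits a list. Its ratios were 1.35 and 1.31 (live), 0.737 and 1.62 (high), and 1.81 and 0.73 (low). The cluster at chr11:59358895-59713845, with 8 OR genes and 2 other protein-coding genes, exceeded the genome in all lists. None of its 8 OR genes had a summit at an end in any list. Here the sorted lists (1.61 to 1.95) lay above the live lists (1.19 and 1.27). At equal length they overlapped, at 1.62 to 2.27 and 1.62 and 2.60. These 2 separations were picked out of 8 clusters after the values were seen and were not tested.

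By the 1 kb rule and with full lists, genes of other families inside the clusters had a summit at an end in every list or in none. Of 20 such genes, 7 had a summit at an end in all 6 lists and 13 in no list. The 7 were TRIM21, TRIM68, TRIM5 and TRIM22 of the class I cluster, members of a family of ubiquitin ligases with roles in antiviral defence, OSBP and PATL1 of the cluster at chr11:59358895-59713845, and VWA5A of the last cluster. TRIM6, TRIM34 and their readthrough gene TRIM6-TRIM34, in the class I cluster, and TRIM51 had no summit at an end in any list. Sites inside TRIM34, at chr11:5624874-5624997 and chr11:5632017-5632097, were however in all 6 lists. Both also lie inside the overlapping genes TRIM5 and TRIM6-TRIM34. At equal length, and also with a 500 bp window, 7 of the 20 genes were counted in at least 1 list and 6 in all 6. With a 2500 bp window the counts were 8 and 7. The summit at OSBP, which encodes a sterol transporter, stood within the best 0.32% to 1.18% of every list, and that at TRIM68 between 0.45% and 9.49%. The beta-globin genes HBB, HBD, HBG1, HBG2 and HBE1, erythroid genes that lie between OR genes, had no summit at an end. The site nearest to HBE1, HBG1 and HBG2, at chr11:5280697-5280804, lay 10786 bp from the nearest end of HBE1. It was present in all lists but H3K27ac high replicate 1, at 28.6% and 39.6% (live), 47.3% (high), and 67.2% and 45.8% (low) of its list. In the live lists HBB and HBD lay nearer to a site at chr11:5204995-5205050, 20469 and 20414 bp from HBB.

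Joining cluster summits of all lists closer than 250 bp gave 108 sites. Of these, 19 (17.6%) were in all 6 lists and 33 (30.6%) in 1 list, against 19.8% and 34.7% of 100488 sites over chromosomes 1 to 22 and X. By position, 59 of the 108 lay outside protein-coding genes and over 1 kb from the ends of protein-coding and long noncoding RNA genes, 15 of them inside a noncoding gene or pseudogene, 16 at an OR gene end, 13 inside an OR gene, 9 inside another protein-coding gene, 7 at the end of another protein-coding gene and 4 at the end of a long noncoding RNA gene. The 16 at OR gene ends do not include that of OR52W1, which lies just past the cluster. Of the 19 in all 6 lists, 7 were the ends of the other protein-coding genes, 7 were among the 59 and 2 were at OR gene ends.

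These 7 sites outside protein-coding genes included some of the best-placed summits of the OR clusters. At chr11:55658143-55658255, 3971 bp from the nearest end of OR4C6, the summit stood at 6.96% and 9.43% of the live lists, 18.1% and 12.4% of the high lists, and 14.0% and 13.6% of the low lists. OR4C6 itself was counted at an end only in live replicate 1. Between OR4D9 and OSBP, the site at chr11:59550483-59550514 lay 143 bp from TRV-TAC1-1, a valine transfer RNA gene, and stood at 2.33% and 2.69% (live), 19.3% and 14.2% (high), and 14.1% and 10.6% (low). A second transfer RNA gene, TRF-GAA1-3 for phenylalanine, had its end 27 bp from the site at chr11:59557473-59557559, and both sites lie inside the noncoding gene LOC102723575. The other 4 lay 8886 to 33690 bp from the nearest OR gene, at OR5AN1, OR5M1, OR9G4 and OR10G7.

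Summits of the clusters stood near the middle of their lists. Their median list position was 47.5% and 49.3% in the live lists, 40.0% and 51.8% in the high lists, and 57.9% and 50.7% in the low lists, where all summits of a list have a median of about 50%. Between 5.77% and 12.8% of them stood in the best 10% of their list. The share found within 250 bp of a summit of the other replicate was 80.0% and 82.1% (live), 84.0% and 45.7% (high), and 81.2% and 75.0% (low), beside the 77.4% and 74.8%, 86.0% and 47.4%, and 82.2% and 66.4% of all summits.

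The first comparison of the design asked whether cells with high and low H3K27ac differ in accessible chromatin. The OR genes gave no difference that passed a test, which 2 libraries per group could not reach. The share of OR genes with a summit at an end was 2.68% ± 2.10 (SD, n = 2) with high staining. With low staining it was 5.06% ± 1.26 (SD, n = 2), and the lists overlapped (exact permutation test, two-sided, p = 0.667, the smallest possible being 0.333). No OR gene was counted in both high and neither low list, against 0.0555% of all protein-coding genes. None was counted in both low and neither high list, against 0.989%, and none in all sorted and neither live list, against 0.0202%. The density ratio was 0.508 ± 0.00474 (SD, n = 2) with high staining and 0.557 ± 0.0524 (SD, n = 2) with low staining, a difference of -0.049 (exact permutation p = 0.333, the smallest possible). With full lists, both high lists (0.504 and 0.511) lay below both low lists (0.594 and 0.520). At equal length they overlapped, at 0.504 and 0.504 (high) and 0.565 and 0.464 (low), a difference of -0.0101. They also overlapped with scores of at least 5, at 0.567 and 0.487 (high) and 0.558 and 0.532 (low). Without summits at ends of protein-coding genes outside the family they stayed apart (0.533 and 0.565 against 0.675 and 0.575). At equal length 2 and 1 OR genes were counted in the high lists, 2 and 1 in the low lists and 2 and 3 in the live lists. All protein-coding genes then gave 44.9% and 48.0% (high), 50.1% and 50.0% (low), and 49.4% and 49.4% (live).

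Sorted and fixed cells were then set against live cells. Live lists held OR gene ends in 6.25% ± 1.26 of cases (SD, n = 2) and sorted lists in 3.87% ± 1.97 (SD, n = 4). All protein-coding genes were also counted less often in the sorted lists, at 44.9% to 57.6% against 61.5% and 61.7%. The difference of -2.38 points gave an exact permutation p of 0.267, where 0.0667 is the smallest possible. At equal length it was -0.595 points, with 2 and 3 genes in the live lists and 1 or 2 in each sorted list. Without H3K27ac high replicate 1, and at the next shortest length, it turned to 1.39 points, and the low minus live difference to 1.79 points. The high group alone differed from the live control by -3.57 points (exact permutation p = 0.333), and the low group by -1.19 points (exact p = 0.667).

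For the density ratio of the clusters, the sorted lists averaged 0.532 ± 0.0415 (SD, n = 4) and the live lists 0.575 ± 0.0238 (SD, n = 2). The difference of -0.0429 did not pass (exact permutation p = 0.400). At equal length all 4 sorted lists (0.464 to 0.565) lay below both live lists (0.585 and 0.666), a difference of -0.116 (exact permutation p = 0.0667, the smallest possible). Without H3K27ac high replicate 1, and at the next shortest length, the separation ended. Low replicate 1 (0.594) then lay above both live lists (0.581 and 0.544), and the difference was -0.0144 (exact permutation p = 0.900). With genes chained up to 1000 kb it turned to 0.0139.

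Gene lists around the receptors ran from no open member to nearly all. Of 14 genes of odorant signal transduction, 7 had a summit at an end in at least 1 list. The channel subunit gene CNGA4 and GNB1, for a widely used G protein subunit, had one in all 6 lists, and the olfactory marker protein gene OMP and the channel gene CNGA2 in none. The 3 receptor trafficking genes RTP1, RTP2 and REEP1 had none either. RTP2 was just past the limit in some lists, at 1049 and 1137 bp (live) and 1116 bp (low replicate 2). Of 9 regulators of receptor choice, 5 had a summit in at least 1 list. EBF1 and the histone demethylase gene KDM1A had one in all 6, and EBF2 and EMX2 in none. LHX2 (5 lists) and LDB1 (4 lists) are named for their role, after their values were seen. Of 15 heterochromatin regulators, 12 had a summit in all 6 lists, among them CBX5 for an HP1 protein, the methyltransferase gene SETDB1 and LBR for the lamin B receptor. The methyltransferase gene SUV39H1 had none, with its nearest summits at 1036 to 1199 bp. Over all protein-coding genes, 64.8% had a summit in at least 1 list and 43.9% in all 6.

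Annotated OR promoters were poor in CpG. The promoter table held 135 of the 168 genes, with 300 bases each, 250 before and 50 after the annotated start. Of the 168 gene models, 74 span at most 1000 bp, and whether transcription begins at the annotated start was not tested. Their median GC content was 37.0% and their median CpG count 1, against 63.0% and 22 over 15498 promoters of protein-coding genes that are not OR genes. At most 3 CpG were found in 94.8% of the OR and 11.9% of the other promoters. Promoters of genes outside the family with at most 3 CpG numbered 1842, and 26.2% of these genes had a summit at an end in at least 1 list and 9.66% in all 6. The OR genes with a promoter in the table had one in 8.89% and 0.741% of cases.

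**Figure D5:**
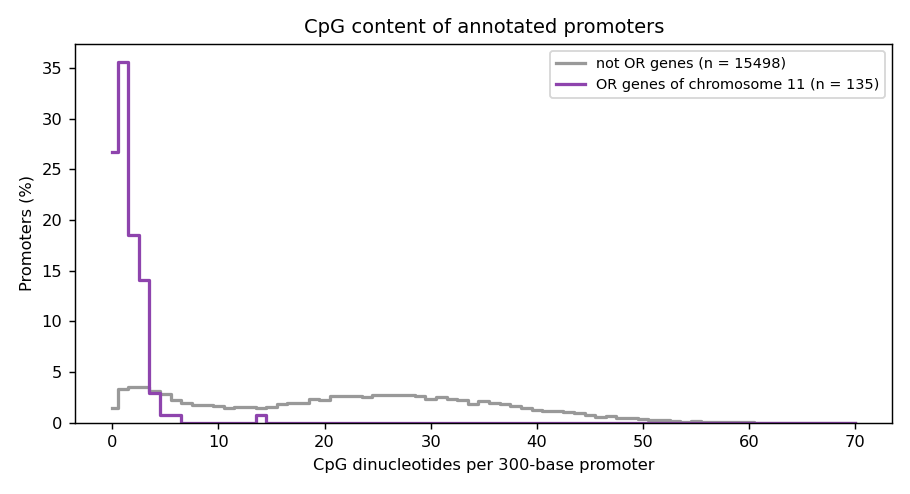
CpG dinucleotides per 300-base promoter (x axis) and share of promoters (y axis, %) for chromosome 11 OR genes and for protein-coding genes that are not OR genes. The OR curve peaks at 1 CpG, with OR52N2 apart at 14, and the other curve is broad, with a median of 22.

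OR52N2, whose upstream sequence is printed above, had the most CpG of the 135 (14 in its 300 bases). OR51S1 followed with 6, OR5D18 with 5, and OR52B4, OR52E4, OR5M3 and OR5P2 with 4, and none of these 6 genes had a summit at an end in any list. OR52N2 was also, among the members counted in at least 4 lists that are in the promoter table, the one whose summits lay nearest to the start.

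Motifs were searched on both strands of the 300 bases, as a description of the letters only. TAATTA, of the LIM homeodomain type bound by LHX2, was in 24.4% of the OR promoters and 3.35% of all 15812 protein-coding promoters. TATAAA, the TATA box, was in 35.6% against 9.64%. CCGGAA, of the ETS type, was in 0.741% against 22.8%, the E-box CACGTG in 0.741% against 8.87%, and CCCNNGGG, the core of the EBF motif, in 8.15% against 21.7%. The full EBF palindrome, this core with T before and A after it, overlaps the core and was in 1.48% against 1.4%, at OR52E5 and OR56A1. In the 250 bases before OR2AG2 the core occurs once, 206 bases before the start. TAATTA and TATAAA are rich in A and T, as are the OR promoters. Among the 1842 promoters outside the family with at most 3 CpG, the shares were 9.66% for TAATTA, 28.2% for TATAAA, 1.68% for CCGGAA, 1.95% for CACGTG and 8.69% for CCCNNGGG, all nearer to those of the OR promoters than the shares over all promoters. OR genes of other chromosomes had TAATTA in 21.8% and TATAAA in 35.2% of 179 promoters.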

How the data were processed

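Open chromatin was profiled in GM12878 cells in 6 libraries, 2 per group, with groups and replicate numbers taken from the sample titles. Per the submitters' processing notes, bcl2fastq, FastQC, Bowtie2, Picard and MACS2 were used and the builds hg38 and hg19 are named. Their versions, settings, and filters on duplicates and mapping quality were not given in the sources used here. OR genes include near-identical copies, and how reads shared by copies were placed was not tested. Each deposited list gives single-base summits per library, not on pooled libraries, with a score read as the −log10 of a p-value or q-value. The lowest score in any list was 2.02. Contig names are those of hg38.

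The members and lists were chosen with earlier results of these data known. Gene ends came from the RefSeq table (GRCh38.p14). Rows after a backward jump of over 100000 bp in a chromosome's order were taken as lying on other scaffolds. Summits per Mb used the span between the outermost genes or summits of each chromosome (2959.5 Mb in all). Ranks broke ties by position. Groups were compared with exact two-sided permutation tests over libraries, and sets of genes by counts. Alternatives covered the window, list length, score, chaining, the replicate block and each library left out. The site chaining, the gene gaps, the division of members and the pseudogenes were added after the data were seen. Named genes were those counted in most lists, up to 25, plus those in both lists of 1 sorted group and neither of the other, which gave none. The counting step was tested on simulated lists. Python 3.11.15 with pandas 2.3.3 was used. Lists of read counts were not used here, so depth is unknown.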

Additional observations from a re-analysis of the deposited data

How the results depend on the processing

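Of 108 alternative values, 93 kept the direction or stayed within 1.5 times the count. The values of the replicate block, which could not change, are among the 93. The 17 OR genes counted in at least 1 list became 9 with a 500 bp window, 4 at equal length, and 10 without H3K27ac high replicate 1 at the next shortest length of 41888 summits, an alternative chosen after seeing the data. The 2 genes counted in all 6 lists became 1 at equal length, 4 without high replicate 1 at that length, and 5 without that library alone. Leaving out any other library kept 2, and 14 to 17 genes were counted in at least 1 list.

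The difference in the share of OR genes, high minus low, went to 0 at equal length. Without high replicate 1 at the next shortest length, high minus live turned to 0.595 points, low minus live to 1.79 and sorted minus live to 1.39. For the density ratio, low minus live turned to 0.00618 at that setting, and chaining up to 1000 kb turned high minus live to 0.0109, low minus live to 0.0169 and sorted minus live to 0.0139. The cause was not tested. With 1 library left out in turn, the share differed by -3.87 to -0.893 points (high minus low), -5.06 to -2.08 (high minus live), -2.08 to -0.298 (low minus live) and -3.27 to -1.49 (sorted minus live). The density ratio differed by -0.086 to -0.0119, -0.0842 to -0.0505, -0.0555 to 0.0186 and -0.0634 to -0.026, low minus live turning without low replicate 2. Taking differences within replicate number, a replicate block, cannot change a difference of means by arithmetic, only its p. The values were -2.38 points and -0.049 (high minus low), -3.57 points and -0.0674 (high minus live) and -1.19 points and -0.0184 (low minus live). The exact permutation p within blocks was 0.5 to 1. With 2 libraries per group no test could pass 0.05.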
